A study of Mus musculus with 4 samples.

Results

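The 8 mineralization and phosphate handling genes Alpl, Enpp1, Phospho1, Smpd3, Slc20a1, Slc20a2, Phex and Sgms2 were followed through the cells of the growing end of the mouse incisor. They were chosen by name from the 32285 gene identifiers of the 4 matrices, and all 8 were found. Values given for 4 libraries are in the order WT replicate 1, WT replicate 2, Din-KO replicate 1 and Din-KO replicate 2. Single cells came from the proximal end of lower incisors of mice at postnatal day 15, with 2 libraries from WT mice and 2 from Din-KO mice, which lack the predicted gene Din in every cell through an allele derived from a gene trap that carries a LacZ reporter. The tissue was digested with liberase and depleted of dead cells, and the numbers, sexes and strain of the mice pooled in a library are not given in the sources used here, so p-values measure the spread between these 4 samples, which may in part be technical.

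Mineral forms where phosphate is high and pyrophosphate, which blocks crystal growth, is low. Enpp1 makes pyrophosphate outside the cell and Alpl, the tissue-nonspecific alkaline phosphatase, splits it into phosphate. Sgms2 makes sphingomyelin, Smpd3 (neutral sphingomyelinase) cuts it to ceramide and phosphocholine, and Phospho1 releases phosphate from phosphocholine inside matrix vesicles. Slc20a1 (Pit1) and Slc20a2 (Pit2) carry phosphate into cells, and Phex is an endopeptidase of the cell surface that acts on phosphoproteins of dentin and bone and restrains the phosphate hormone Fgf23. In teeth, odontoblasts lay down the dentin that these reactions mineralize, and loss of Alpl or Phex leaves dentin poorly mineralized.

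Of 20502 barcodes, 11310 were kept, between 1272 and 4575 in a library, from 32198098 to 54348039 UMIs (unique molecular identifiers, each 1 captured transcript) per library. Cells were clustered with the 8 genes held out, and classes were named from marker genes, which gave 4716 dental pulp-like cells in 6 clusters, 648 preodontoblast-like cells in 1, 226 odontoblast-like cells in 2, 1421 dental follicle-like cells in 4 and 578 epithelium-like cells in 2. Of preodontoblast-like cells 77.2% and 47.5% in WT and 69.1% and 56.8% in Din-KO were scored outside the G1 phase of the cell cycle. Such cells were 19.9% to 29.8% of dental pulp-like and at most 5.71% of odontoblast-like cells. Defining markers were checked for the odontoblast-like and epithelium-like classes, and Notum for the preodontoblast-like class. Dspp, the dentin sialophosphoprotein, was at 701.4 to 8425 CPM (a gene's UMIs over all UMIs of the class in that library, on the usual CPM scale) in odontoblast-like cells. It was at most 16.04 CPM in dental pulp-like and 11.1 CPM in preodontoblast-like cells. Amelx, the enamel matrix amelogenin, was at 27910 and 288100 CPM in WT and 107000 and 169900 CPM in Din-KO epithelium-like cells. Since CPM is a share of all UMIs, levels of other genes in these cells are diluted unequally between libraries. Dspp was not confined to odontoblast-like cells. Epithelium-like cells held it at 450.4 and 78.45 CPM in WT and 272.4 and 28.43 CPM in Din-KO, each below the odontoblast-like value of the same library. Amelx also stood at 28.0 to 597.1 CPM in dental pulp-like cells and Bglap, the osteocalcin of odontoblasts and bone, at 12.2 to 413.3 CPM, each higher in the replicate 2 libraries; whether RNA from other cells adds to the low values given here was not tested. The libraries differed in makeup more by replicate number than by genotype, since dental pulp-like cells were 52.7% and 48.9% of the replicate 1 libraries of WT and Din-KO and 15.5% and 14.0% of the replicate 2 libraries. Din itself was at 36.8 and 28.6 CPM in WT and 23.4 and 28.4 CPM in Din-KO mesenchyme-like cells, and since the knockout removes exon 2 while 3′ reads can come from outside it, these counts do not check the deletion. The Din-KO libraries also held cells with Y-linked transcripts, 43.1% and 43.4% of mesenchyme-like cells, while the WT libraries held none. Each pair of libraries shared 4 to 12 barcodes, of which at most 4 were kept cells in both.

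In the GENCODE annotation of GRCm38 the 8 genes lie apart from each other. Alpl spans 137741733 to 137796384 on chromosome 4, Enpp1 24637914 to 24712159 on chromosome 10, Sgms2 131318985 to 131491411 on chromosome 3 and Phex 157162075 to 157415312 on chromosome X, all on the minus strand. Phospho1 spans 95824499 to 95832140 on chromosome 11, Slc20a1 129198764 to 129211616 on chromosome 2 and Slc20a2 22476788 to 22569612 on chromosome 8, on the plus strand, and Smpd3 spans 106252548 to 106337988 on the minus strand of chromosome 8. The reads are from the 3′ ends of transcripts, so isoforms and start sites are not told apart.

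Of the 8 genes, 6 have a promoter listed by RefSeq on GRCm38.p6, and 3 of these have a single listed start. Those 3, Enpp1, Phospho1 and Phex, all had their highest mean level in odontoblast-like cells, and their promoters are shown because they share that pattern while differing in letters. The lines give the 250 bases before the start, 5′ to 3′ on the gene's strand, for Enpp1 at chr10:24712160-24712409 (minus strand), Phospho1 at chr11:95824250-95824499 (plus strand) and Phex at chrX:157415287-157415536 (minus strand). Capitals mark 6-base motifs on either strand, the Runx motif TGTGGT and the GC box GGGCGG.
Enpp1: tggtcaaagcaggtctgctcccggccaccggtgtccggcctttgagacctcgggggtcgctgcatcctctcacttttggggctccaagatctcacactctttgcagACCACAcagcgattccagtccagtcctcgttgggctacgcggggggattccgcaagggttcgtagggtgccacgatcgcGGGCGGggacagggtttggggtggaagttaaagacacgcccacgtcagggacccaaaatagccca
Phospho1: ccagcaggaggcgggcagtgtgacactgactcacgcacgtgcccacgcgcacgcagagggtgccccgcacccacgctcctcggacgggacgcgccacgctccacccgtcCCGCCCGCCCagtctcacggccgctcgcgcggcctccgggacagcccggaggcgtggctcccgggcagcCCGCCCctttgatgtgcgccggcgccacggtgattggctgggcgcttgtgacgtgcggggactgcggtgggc
Phex: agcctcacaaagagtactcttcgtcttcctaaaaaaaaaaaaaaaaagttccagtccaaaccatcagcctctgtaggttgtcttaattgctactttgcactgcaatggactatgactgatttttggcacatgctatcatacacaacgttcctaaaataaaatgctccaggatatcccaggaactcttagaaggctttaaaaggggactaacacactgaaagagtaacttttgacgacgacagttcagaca

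The Enpp1 window held 1 Runx motif, written here from the other strand, whose first base lay 144 bases before the start, and 1 GC box at 65 bases before it. The Phospho1 window held 3 GC boxes, 2 of which overlap, and the Phex window held neither motif. GC content was 61.2% in Enpp1, 75.6% in Phospho1 and 39.2% in Phex. Over 32851 listed mouse promoters of the same length, 14.0% held the Runx motif and 32.7% the GC box, and TAATTA, a homeodomain motif in 4.84% of promoters, was in none of these 3. A match is a description of letters, not of binding.

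Enpp1 stood highest in odontoblast-like cells in every library. Its level was 130.8 and 154.2 CPM in the 2 WT libraries and 171.3 and 165.6 CPM in the 2 Din-KO libraries, against 20.4, 44.5, 19.2 and 49.5 CPM in preodontoblast-like cells of the same libraries and 3.05, 11.1, 8.43 and 11.2 CPM in dental pulp-like cells. No odontoblast-like value overlapped those of any other of the 5 classes, and all 4 libraries rose from pulp to preodontoblast to odontoblast as class levels. Rises, falls and steps named here are differences between classes, and no order of differentiation was fitted. The pulp level joined unlike clusters. Enpp1 was at 18.0 to 54.45 CPM in the pulp cluster led by Smoc2 and Lypd1, which overlapped preodontoblast-like cells. In the one led by Cldn10 and Ifitm1 it was at most 1.95 CPM. Enpp1 was higher by 2.23 on the log2 scale in preodontoblast-like than in dental pulp-like cells (standard error 0.31, edgeR adjusted p = 3.56e-05, quasi-likelihood test) and by 2.52 again in odontoblast-like cells (standard error 0.28, edgeR adjusted p = 3e-06). Dental follicle-like cells held 15.9 to 25.9 CPM and epithelium-like cells 2.28 to 8.73 CPM, and the epithelium and pulp ranges overlapped.

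Alpl did not follow that order. Dental pulp-like cells held 349.5 and 574.6 CPM in WT and 449.9 and 419.2 CPM in Din-KO, odontoblast-like cells 325.9, 308.0, 463.1 and 435.9 CPM, and dental follicle-like cells 310.5, 382.6, 208.4 and 416.2 CPM, in the same order of libraries. Neighbours among these 3 classes overlapped, and odontoblast-like and dental pulp-like cells differed by 0.16 on the log2 scale (standard error 0.29, edgeR adjusted p = 0.684). This fitted value uses TMM factors and has the opposite sign to that of the mean levels, 383.2 and 448.3 CPM. Preodontoblast-like cells lay below all 3 classes without overlap, at 76.4 and 204.5 CPM in WT and 85.1 and 149.4 CPM in Din-KO. Alpl was thus lower in preodontoblast-like than in dental pulp-like cells by a log2 fold change of -1.72 (standard error 0.30, edgeR adjusted p = 0.000254) and higher again in odontoblast-like than in preodontoblast-like cells by 1.88 (standard error 0.30, edgeR adjusted p = 9.51e-05). Epithelium-like cells held 46.0, 100.7, 97.7 and 226.3 CPM, a range that overlapped that of preodontoblast-like cells.

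The pulp value of Alpl was a mean over very unlike clusters. In the cluster led by Smoc2 and Lypd1 it was 27.4 and 37.3 CPM in WT and 21.8 and 23.4 CPM in Din-KO, and in the one led by Enpp2 and Pdlim3 it was 1392, 2580, 2086 and 933.5 CPM. The clusters led by Cnmd and Gpha2, by Cldn10 and Ifitm1, and by Ifitm1 and Rspo4 lay between these, at 204.2 to 486.9, 488.4 to 924.4 and 491.7 to 1898 CPM. The highest and lowest values of the Enpp2 and Pdlim3 led cluster rest on 4 cells of WT replicate 2 and 8 of Din-KO replicate 2. The highest of the Cnmd and Gpha2 led cluster rests on 8 cells of WT replicate 2. The Vcan and Rspo4 led cluster was low, at 77.2 and 79.0 CPM in WT and 41.0 and 7.68 CPM in Din-KO, the last from 4 UMIs. The 3 highest clusters stood above every value of the odontoblast-like class, and the Smoc2 and Lypd1 led cluster below every preodontoblast-like value.

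**Figure D1:**
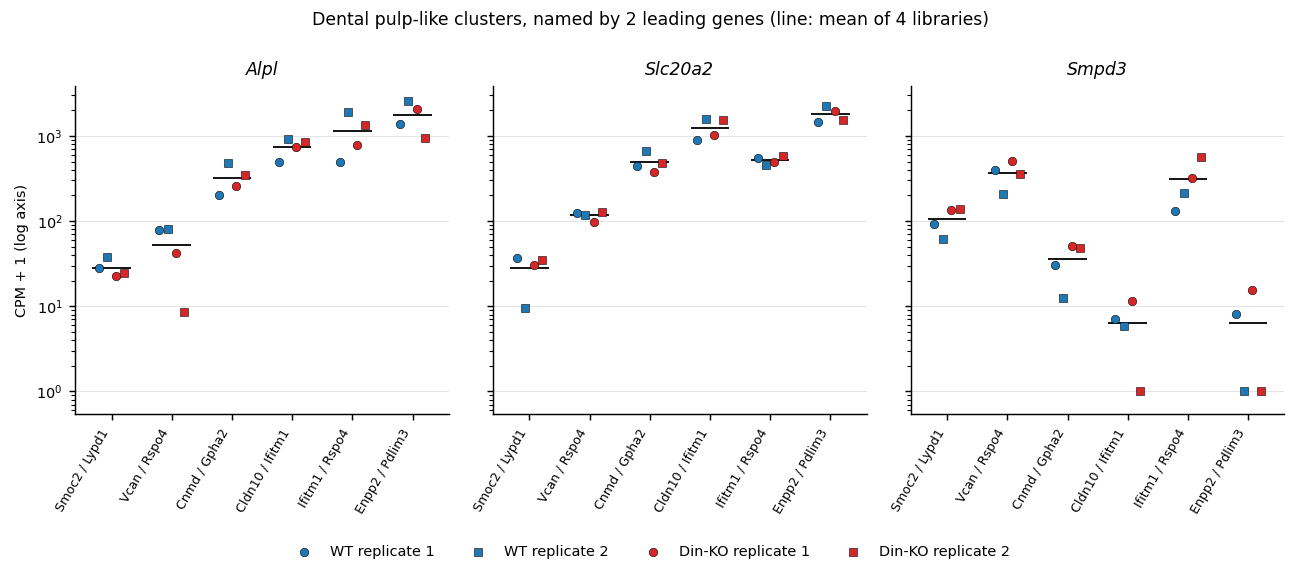
Level of Alpl, Slc20a2 and Smpd3 in the 6 dental pulp-like clusters, each named by 2 leading genes, as CPM + 1 on a log axis; each point is 1 library (blue WT, red Din-KO) and the line is the mean of the 4 libraries. By the mean of the 4 libraries Alpl and Slc20a2 were lowest in the Smoc2 and Lypd1 led cluster, although the lowest single Alpl value, 7.68 CPM, was that of the Vcan and Rspo4 led cluster in Din-KO replicate 2, and Smpd3 was highest in the Vcan and Rspo4 and the Ifitm1 and Rspo4 led clusters. The replicate 2 points of the Enpp2 and Pdlim3 led cluster are of 4 (WT) and 8 (Din-KO) cells, and the WT replicate 2 point of the Cnmd and Gpha2 led cluster is of 8.

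Sgms2 and Smpd3, which make and cut sphingomyelin, both rose steeply from pulp to preodontoblast. Sgms2 was at 10.4 and 34.6 CPM in WT and 13.7 and 43.8 CPM in Din-KO dental pulp-like cells, against 256.5, 529.6, 254.7 and 464.0 CPM in preodontoblast-like cells. Smpd3 was at 127.0 and 120.3 CPM in WT and 222.9 and 214.9 CPM in Din-KO dental pulp-like cells, against 2787, 1460, 3263 and 1419 CPM in preodontoblast-like cells. The pulp and preodontoblast values did not overlap for either gene, with log2 fold changes of 4.23 for Sgms2 (standard error 0.39, edgeR adjusted p = 7.8e-07) and 3.83 for Smpd3 (standard error 0.52, edgeR adjusted p = 2.47e-05). Smpd3 had at least 1 UMI in 95.6% to 97.5% of preodontoblast-like cells, at median depths of 10724 to 18043 UMIs a cell. In macrophage-like cells, at 9370 to 10725 UMIs, it had a UMI in 3.88% to 16.8%. Thinned to 2000 UMIs a cell, these shares were 79.8% to 86.0% and 0% to 4.62%. Epithelium-like and dental follicle-like cells stayed at or under 36.2 CPM for Smpd3 and 29.7 CPM for Sgms2.

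From preodontoblast to odontoblast, Sgms2 passed the test as higher and Smpd3 did not pass. Sgms2 was at 817.7 and 371.0 CPM in WT and 1041 and 618.4 CPM in Din-KO odontoblast-like cells, a log2 fold change of 1.24 over preodontoblast-like cells (standard error 0.35, edgeR adjusted p = 0.00817). Sgms2 was higher in 3 of 4 libraries and lower in WT replicate 2, at 371.0 against 529.6 CPM, and the ranges of the 2 classes overlapped. Smpd3 was at 5780 and 629.6 CPM in WT and 6259 and 937.4 CPM in Din-KO odontoblast-like cells. The replicate 1 libraries of both genotypes were above their preodontoblast-like values and the replicate 2 libraries below, and the log2 fold change was 0.47 (standard error 0.47, edgeR adjusted p = 0.441). The Sgms2 call was lost without WT replicate 1 (log2 fold change 1.00, edgeR adjusted p = 0.058) and without Din-KO replicate 1 (0.89, edgeR adjusted p = 0.078).

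The 2 odontoblast-like clusters held these genes at different levels, and the libraries held the clusters in different shares. The cluster led by Dmp1 and Dkk1 had 26 and 20 cells in the WT libraries and 28 and 18 in the Din-KO libraries, and the one led by Bglap and Dspp, the later dentin matrix genes, had 9, 65, 16 and 44. Smpd3 was at 7136, 1552, 8267 and 1781 CPM in the Dmp1-led cluster and at 622.5, 304.4, 663.2 and 380.3 CPM in the Bglap- and Dspp-led cluster. Sgms2 was at 1008, 710.8, 1355 and 992.0 CPM in the first and at 93.1, 251.2, 165.8 and 371.6 CPM in the second. Every value of the Dmp1-led cluster was above every value of the other cluster for both genes.

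In comparisons added after the data were seen, each odontoblast-like cluster was set alone against preodontoblast-like cells. The 9 cells of WT replicate 1 in the Bglap- and Dspp-led cluster were under the minimum of 10 and were left out of its test. In that cluster Smpd3 was lower than in preodontoblast-like cells, with a log2 fold change of -1.99 (standard error 0.38, edgeR adjusted p = 0.000524), while Sgms2 was at -0.37 (edgeR adjusted p = 0.251). In the Dmp1-led cluster Sgms2 was higher by 1.65 (edgeR adjusted p = 0.000392) and Smpd3 was at 0.98 (standard error 0.40, edgeR adjusted p = 0.0618). The Smpd3 value of the whole class therefore joined a cluster above preodontoblast-like cells and one below them, each by its level in 4 of 4 libraries, the 9 cells included. Smpd3 remained split by replicate number within the Dmp1-led cluster and within preodontoblast-like cells, where the replicate 1 libraries were higher in both genotypes.

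**Figure D2:**
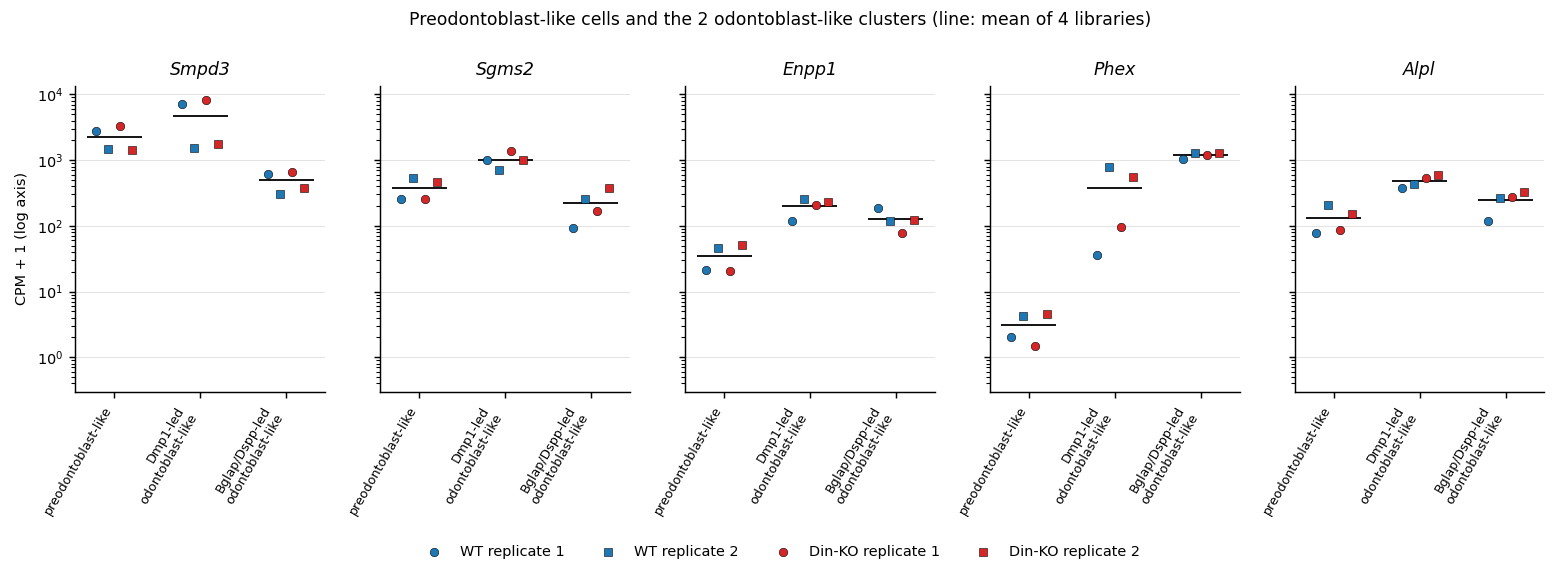
Level of Smpd3, Sgms2, Enpp1, Phex and Alpl in preodontoblast-like cells and in the 2 odontoblast-like clusters, as CPM + 1 on a log axis; each point is 1 library (blue WT, red Din-KO; circles replicate 1, squares replicate 2) and the line is the mean of 4. Smpd3 and Sgms2 were higher in the Dmp1-led than in the Bglap- and Dspp-led cluster in every library, and Phex was the reverse.

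Phospho1, the next enzyme of the route, was near the limit of detection. Odontoblast-like cells held 6 UMIs in each WT library and 4 and 2 in the Din-KO libraries, which is 7.27, 2.46, 3.07 and 1.16 CPM, and 16 of these 18 UMIs lay in the Dmp1-led cluster. Preodontoblast-like cells held 1 and 5 UMIs in WT and 0 and 1 in Din-KO, and dental pulp-like cells 1 UMI in all. Dental follicle-like and epithelium-like cells held 0 UMIs in every library, which allows a level of up to 0.351 to 0.589 CPM and 0.672 to 1.07 CPM (3 counts of the class total, counting error only). Phospho1 did not pass the filter on low counts, so it was not among the genes tested. Without the filter its difference between odontoblast-like and dental pulp-like cells passed (edgeR adjusted p = 0.000529).

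Slc20a2 was the gene that set pulp apart from the other 4 classes. It was at 558.2 and 631.7 CPM in WT and 505.5 and 524.5 CPM in Din-KO dental pulp-like cells. Preodontoblast-like cells held 38.0, 57.0, 34.1 and 42.4 CPM and odontoblast-like cells 6.06, 15.95, 5.38 and 12.8 CPM. No pulp value of the whole class overlapped another class. Slc20a2 was lower in preodontoblast-like than in dental pulp-like cells by 3.55 on the log2 scale (standard error 0.19, edgeR adjusted p = 1.11e-08). It was lower in odontoblast-like than in preodontoblast-like cells by 1.74 (standard error 0.23, edgeR adjusted p = 1.35e-05). Dental follicle-like cells at 34.6 to 46.4 CPM, epithelium-like cells at 39.9 to 51.2 CPM and preodontoblast-like cells overlapped each other. Slc20a2 had a UMI in 59.5% to 80.1% of dental pulp-like cells, at median depths of 6861 to 10592 UMIs, and in 13.2% to 21.5% of macrophage-like cells at 9370 to 10725 UMIs. Thinned to 2000 UMIs these were 39.5% to 54.3% and 3.30% to 6.83%.

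Within the pulp Slc20a2 was uneven, as Alpl was. It was at 36.0 and 8.60 CPM in WT and 29.7 and 34.2 CPM in Din-KO cells of the Smoc2 and Lypd1 led cluster, which is within or under the range of preodontoblast-like cells. It was at 1466, 2253, 1941 and 1535 CPM in the Enpp2 and Pdlim3 led cluster and at 900.0, 1573, 1018 and 1528 CPM in the Cldn10 and Ifitm1 led cluster. The values of 2253 and 1535 CPM rest on 4 cells of WT replicate 2 and 8 of Din-KO replicate 2. Smpd3 ran differently, at 393.4, 210.0, 509.6 and 353.3 CPM in the Vcan and Rspo4 led cluster and at most 14.5 CPM in the Cldn10 and Ifitm1 and the Enpp2 and Pdlim3 led clusters. The 2 clusters highest in Slc20a2 were thus the 2 lowest in Smpd3.

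Slc20a1, the other phosphate transporter of the family, had no such class. Its levels were 3.27, 8.21, 3.10 and 11.8 CPM in dental pulp-like cells, 3.63, 12.3, 9.22 and 20.3 CPM in odontoblast-like cells and 7.49, 13.4, 17.6 and 12.3 CPM in epithelium-like cells, and every neighbouring pair of the 5 classes overlapped. Against dental pulp-like cells in the same libraries it was higher in epithelium-like cells by 1.66 on the log2 scale (edgeR adjusted p = 0.000167), in odontoblast-like cells by 1.43 (edgeR adjusted p = 0.00234) and in dental follicle-like cells by 1.00 (edgeR adjusted p = 0.0135). These fitted values use TMM factors and are larger than the mean levels give. The means were 12.7, 11.4 and 10.7 CPM in these 3 classes and 6.59 CPM in dental pulp-like cells. Outside the 5 classes endothelium-like cells held 20.4 to 35.6 CPM. The follicle call was lost without WT replicate 1 or without Din-KO replicate 1, and the odontoblast call over preodontoblast-like cells (1.03, edgeR adjusted p = 0.0268) was lost without WT replicate 2 (1.14, edgeR adjusted p = 0.0824) or Din-KO replicate 2 (0.83, edgeR adjusted p = 0.116).

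Phex was almost wholly a gene of odontoblast-like cells. It was at 241.1 and 1168 CPM in WT and 385.6 and 1004 CPM in Din-KO odontoblast-like cells, and at most 6.63 CPM in any library of the other 4 classes. Its log2 fold change over preodontoblast-like cells was 8.65 (standard error 0.44, edgeR adjusted p = 1.24e-09), the largest of the 7 genes tested in any of the 5 class comparisons. Of the 2 clusters, the Bglap- and Dspp-led one held 1024, 1298, 1193 and 1298 CPM and the Dmp1-led one 35.2, 797.1, 96.0 and 559.5 CPM. In the Dmp1-led cluster the replicate 1 libraries were low in both genotypes. In dental follicle-like cells Phex was at 15.2, 42.2, 36.7 and 47.8 CPM in the cluster led by Spp1, Mmp13 and the bone sialoprotein gene Ibsp, and at most 4.59 CPM in the 3 other clusters.

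**Figure D3:**
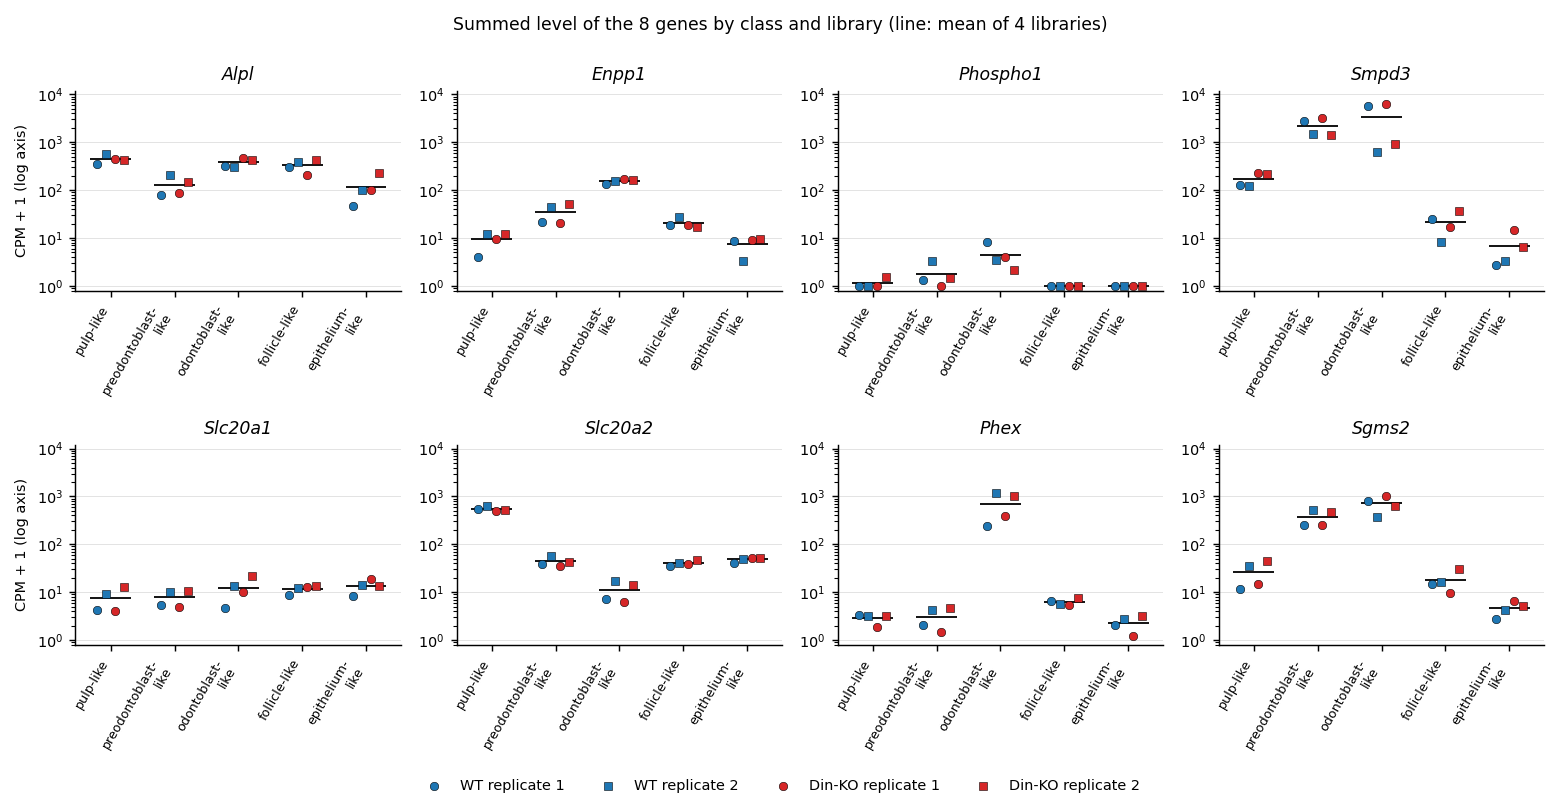
Level of each of the 8 genes in 5 cell classes, as CPM + 1 on a log axis; each point is 1 library (blue WT, red Din-KO; circles replicate 1, squares replicate 2) and the line is the mean of 4. Slc20a2 stood highest in dental pulp-like cells, Enpp1 and Phex in odontoblast-like cells, and Smpd3 and Sgms2 in preodontoblast-like and odontoblast-like cells.

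Read together against all 13129 genes tested, 3 of the 7 genes that passed the filter were higher and 2 lower in preodontoblast-like than in dental pulp-like cells, where 19.5% and 20% of all genes were called in these directions. In odontoblast-like against preodontoblast-like cells, 5 were higher and 1 lower, with 20.9% and 22.6% of all genes called. Odontoblast-like against dental pulp-like cells also gave 5 higher (Phex by 8.51, Sgms2 by 5.47, Enpp1 by 4.75, Smpd3 by 4.31 and Slc20a1 by 1.43 on the log2 scale) and 1 lower (Slc20a2, at -5.29), with 23% and 26.4% of all genes called. The classes were drawn from other genes of the same cells, so these tests describe how steady a class difference was over the 4 libraries.

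Dental follicle-like cells differed from dental pulp-like cells in 5 of the 7 genes. Slc20a2 (-3.77 on the log2 scale) and Smpd3 (-3.04) were lower, and Enpp1 (1.41, edgeR adjusted p = 0.0017), Phex (1.22, edgeR adjusted p = 0.0398) and Slc20a1 were higher, against 18.3% of all genes called higher and 14.6% called lower. The Phex call was lost without Din-KO replicate 1 (0.94, edgeR adjusted p = 0.221) or Din-KO replicate 2 (1.25, edgeR adjusted p = 0.109). Alpl (-0.42, edgeR adjusted p = 0.29) and Sgms2 (-0.39, edgeR adjusted p = 0.473) did not pass. In the Spp1-led cluster Alpl was at 798.4 and 1345 CPM in WT and 677.5 and 1126 CPM in Din-KO, above every value of the 3 other follicle clusters, which held 58.9 to 452.3 CPM. Ibsp, a bone and cementum matrix gene, was at 699.1 to 2045 CPM over the class. Odontoblast-like cells held Ibsp too, at 749.9 and 1064 CPM in WT and 120.6 and 598.6 CPM in Din-KO. In WT replicate 2 that was above the follicle value of 848.3 CPM. In a comparison added after the data were seen, without the Spp1-led cluster, Phex was at -1.14 (edgeR adjusted p = 0.123) and Alpl passed as lower than in the pulp (-1.03, edgeR adjusted p = 0.00749).

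**Figure D4:**
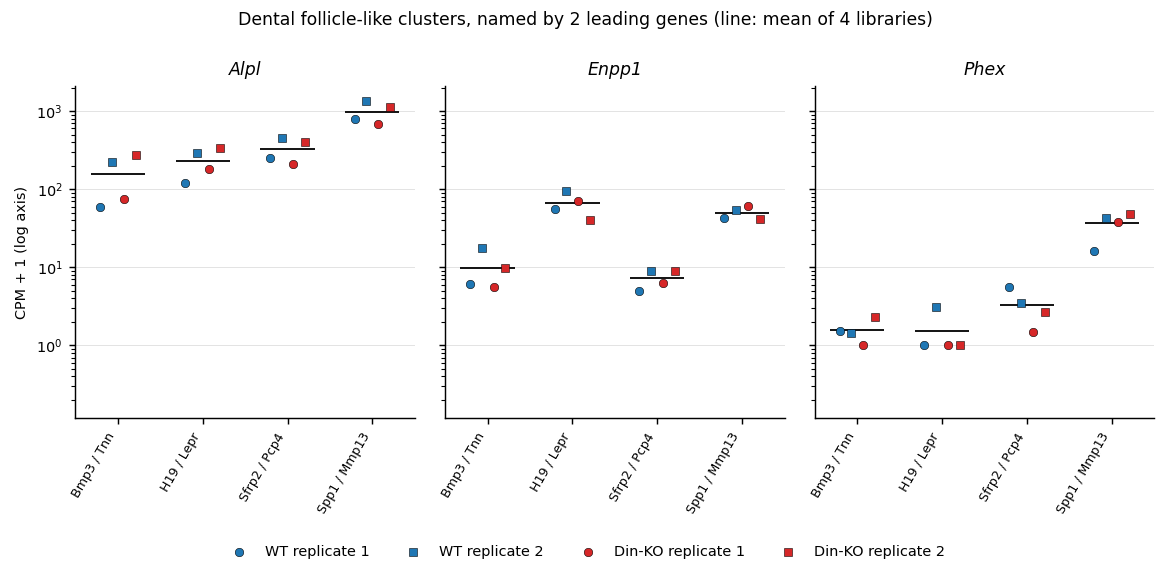
Level of Alpl, Enpp1 and Phex in the 4 dental follicle-like clusters, each named by 2 leading genes, as CPM + 1 on a log axis; each point is 1 library (blue WT, red Din-KO) and the line is the mean of 4. Alpl and Phex were highest in the Spp1 and Mmp13 led cluster, and Enpp1 was higher in that and in the H19 and Lepr led cluster (39.8 to 94.7 CPM) than in the other 2 (at most 16.5 CPM). At a clustering resolution of 0.5 a cluster of 251 cells with Lpl, Lepr and H19 among its leading genes was named perivascular-like, and no follicle-like cluster was led by H19 and Lepr.

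Epithelium-like cells were lower than dental pulp-like cells in Alpl (-1.60 on the log2 scale), Slc20a2 (-3.11), Smpd3 (-4.57) and Sgms2 (-2.13) and higher in Slc20a1 alone, with all edgeR adjusted p at 0.00114 or below. Over all genes 25.5% were called lower and 28.9% higher. Enpp1 (0.25) and Phex (-0.40) did not pass. The fitted Enpp1 difference, which uses TMM factors, has the opposite sign to that of its mean levels, 6.65 CPM in epithelium-like and 8.44 CPM in dental pulp-like cells, with the pulp value above in 3 of 4 libraries.

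Genes whose levels ran most like each member were ranked by Pearson's r of log2(CPM + 1) over 54 sums, each of 1 class in 1 library, of 14 classes, among 9689 genes. These sums share libraries and depth, so the values describe likeness only. Scara3 (0.872) and Sp7 (0.85) were among the genes most like Alpl, and Smpd3 ran most like Panx3 (0.857), Lum (0.847) and Ism1 (0.832). Sgms2 ran most like Ifitm5 (0.844), Dkk1 (0.808) and Notum (0.805), Phex like Col11a2 (0.841), Cpz (0.798) and Dmp1 (0.785), and Phospho1 like Ifitm5 (0.697), Col24a1 (0.674) and Dmp1 (0.672). Ifitm5 and Dmp1, both known from bone and dentin-forming cells, each stood beside 2 of the members. Phospho1 was among these members for both, at a mean of only 0.445 CPM over the sums. Ifitm5, Dmp1, Dkk1, Notum, Cldn10, Lum and Sp7 were markers scored to name classes, so likeness to them is not independent of the naming. Slc20a2 ran most like Cldn10 (0.753), Slc26a7 (0.743) and Fmod (0.733), Enpp1 like P4ha1 (0.746), Ssr1 (0.735) and Sec13 (0.71), and Slc20a1 like Med1 (0.718), Lsm14a (0.683) and Clcn3 (0.675).

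Other genes of the same routes moved in part with the members. Of 16 genes of phosphate and pyrophosphate handling, 12 were tested, and 5 were higher and 4 lower in preodontoblast-like than in dental pulp-like cells (median log2 fold change 0.36, against -0.0401 over all genes, of which 19.5% were called higher and 20% lower). Ank, which raises pyrophosphate outside the cell (2.05), and the pyrophosphatase Ppa1 (1.74) rose, and Enpp2 (-4.45), Enpp3 (-3.32) and the phosphate exporter Xpr1 (-1.24) fell. Enpp2 was a marker used to name the dental pulp-like class, so its fall is not independent of that naming. In odontoblast-like against preodontoblast-like cells 6 were higher and 3 lower (median 0.168, against -0.0664 over all genes, of which 20.9% were called higher and 22.6% lower), with Nt5e, which releases phosphate and adenosine from AMP (3.82), and Ank again (1.86) higher and Entpd1 (-2.59) lower. Enpp1 and Ank, which both raise pyrophosphate outside the cell, were therefore higher in both of these comparisons of whole classes.

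All 21 other genes of sphingomyelin, ceramide and phosphocholine metabolism were tested. In preodontoblast-like against dental pulp-like cells 2 were higher, Cerk (1.39), the ceramide kinase, and Pcyt1a (0.74), and 7 were lower, among them choline kinase Chka (-1.94) and the other sphingomyelin synthase Sgms1 (-1.29), with a median of -0.202, beside 19.5% of all genes higher and 20% lower. In odontoblast-like against preodontoblast-like cells 3 were higher, with Degs1 (2.12) and the acid sphingomyelinase Smpd1 (1.78) first, and 3 lower, with Cers4 (-1.96) first (median 0.243), beside 20.9% and 22.6% of all genes.

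Of 15 genes of the Phex and Fgf23 axis and the SIBLING matrix phosphoproteins, 12 were tested. In odontoblast-like against preodontoblast-like cells 11 were higher and 0 lower (median 4.35), beside 20.9% and 22.6% of all genes, led by Dspp (9.37), Spp1 (8.50) and Dmp1 (7.66). Dspp, Dmp1 and Mepe were also markers used to name the odontoblast-like class. Spp1, Ibsp and Sost were on the bone marker list scored in the same naming, so this count is not independent of it. At the earlier step 2 were higher, the secretory kinase Fam20c (1.99) and Dmp1 (1.82), and 2 lower (median -0.28), beside 19.5% and 20% of all genes.

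Of 17 matrix vesicle and calcium genes, 4 were higher and 8 lower in preodontoblast-like than in dental pulp-like cells (median -0.526), where 19.5% and 20% of all genes were called, and 9 were higher and 1 lower in odontoblast-like than in preodontoblast-like cells (median 0.531), where 20.9% and 22.6% were called, with Sparc (4.82), Slc24a3 (3.49) and the calcium pump Atp2b1 (3.45) first. Slc24a3 (-3.34) and Sparc (-1.34) were among the genes lower at the earlier step, so that both reversed direction, as Alpl did. Of 11 transcription factors of mineralized tissue 4 were higher and 0 lower at the first step (median 0.125), beside the same 19.5% and 20%, with Klf4 (1.59), Dlx5 (0.87) and Sp7 (0.68) first, and 4 higher and 2 lower at the second (median 0.139), beside 20.9% and 22.6%, where Sp7 rose again (1.29) and Dlx5 fell (-1.53). Sp7, Msx1 and Msx2 of this list were also among the markers scored to name classes.

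Dental follicle-like cells were higher than dental pulp-like cells in 7 of the 12 genes of the Phex and Fgf23 axis and SIBLING list and lower in 1 (median 1.04, against 0.0186 over all genes, of which 18.3% were called higher and 14.6% lower), with Spp1 (7.58), Ibsp (6.15) and Galnt3 (3.58) first. Epithelium-like cells were higher in 4 and lower in 2 of these 12 (median 0.335, against 0.0383 over all genes, of which 28.9% were called higher and 25.5% lower), with Galnt3, which glycosylates Fgf23 (7.43), and Fam20c (5.93) first. Among the phosphate and pyrophosphate genes Nt5e was higher than in the pulp in both, by 3.20 in dental follicle-like and 1.91 in epithelium-like cells, and Enpp2 and Enpp3 were lower in both. Enpp2 was a naming marker of the dental pulp-like class, and Spp1 and Ibsp were on the bone marker list, so their differences are not independent of the naming.

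Din-KO and WT were compared within each class to ask whether loss of Din changed the 8 genes where they are found. By edgeR 0 of the 6 or 7 genes tested were called in dental pulp-like, preodontoblast-like, odontoblast-like, dental follicle-like or epithelium-like cells, or in all 7011 mesenchyme-like cells together. Over all genes 0.0146% were called higher in dental pulp-like cells and 0% lower, and 0% in either direction elsewhere. By edgeR the unadjusted p was under 0.05 for 139 of 15241 genes in mesenchyme-like, 228 of 13704 in dental pulp-like and 166 of 10821 in preodontoblast-like cells. It was so for 52 of 9014 in odontoblast-like, 284 of 12963 in dental follicle-like and 144 of 11493 in epithelium-like cells. Each count of this test, which had no term for the replicate number, is lower than the cutoff gives by itself where no gene differs. DESeq2 called 13 genes higher and 1 lower in dental pulp-like cells. In mesenchyme-like, preodontoblast-like, odontoblast-like, dental follicle-like and epithelium-like cells it called 16, 8, 1, 39 and 6 genes, and 0 of the 8 were called in any class. The 40 differences of a member in a class ran from -0.90 to 2.01 on the log2 scale with a median of 0.13, and 39 of them were under 1 in size. In 2 the unadjusted p was under 0.05, both for Smpd3. None of these tests had a term for the replicate number. With that number as a block Smpd3 was called in mesenchyme-like and dental pulp-like cells, as the closing part gives. The unadjusted edgeR p was then under 0.05 for 1570 of 15241 genes in mesenchyme-like and 1457 of 13704 in dental pulp-like cells. It was so for 1008 of 10821 in preodontoblast-like and 1103 of 12963 in dental follicle-like cells. These counts are above what the cutoff gives by itself. Those in odontoblast-like (327 of 9014) and epithelium-like cells (303 of 11493) are below it. The labels tie the replicate number to no pairing.

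**Figure D5:**
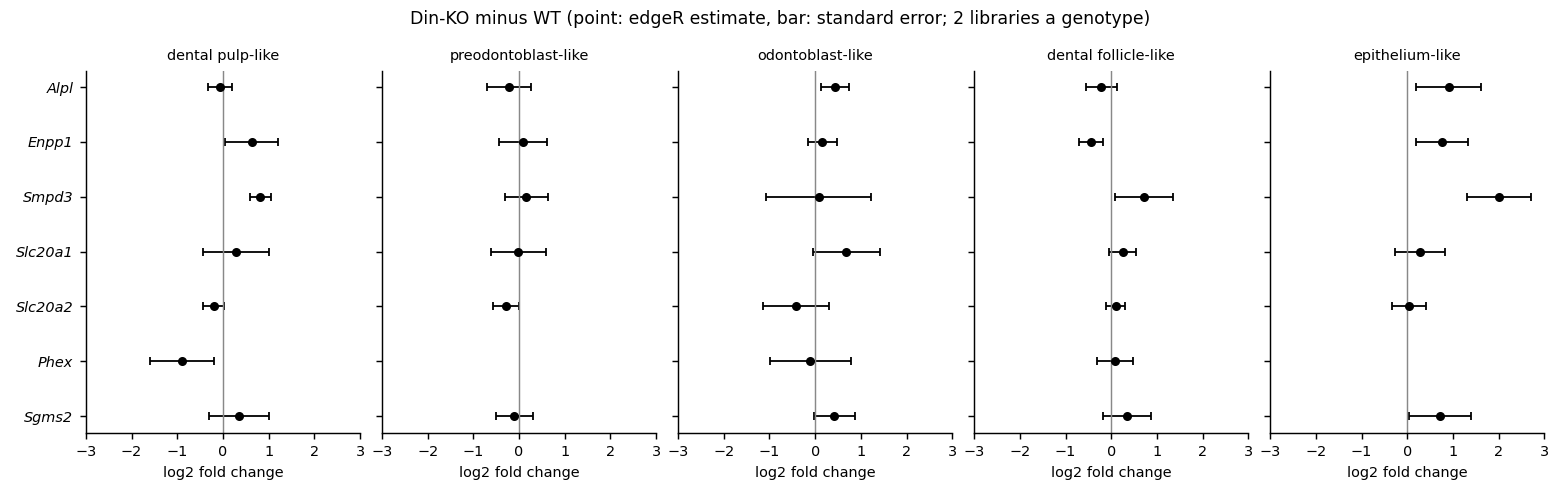
Difference between Din-KO and WT in each class as the log2 fold change estimated by edgeR (point) with its standard error (bar), for the 7 members tested, with 2 libraries of each genotype; members that did not pass the filter in a class have no point. The points lie within 1 of 0 except Smpd3 in epithelium-like cells at 2.01, and none passed the adjusted test, which had no term for the replicate number.

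In dental pulp-like cells Smpd3 was at 127.0 and 120.3 CPM in WT and 222.9 and 214.9 CPM in Din-KO. Both Din-KO libraries were above both WT libraries, a log2 fold change of 0.82 (standard error 0.23, unadjusted p = 0.00988 and adjusted p = 1 by edgeR's quasi-likelihood test over 13704 genes). Such a separation upward was found in 10% of the genes tested there and downward in 12.5%, and among the members Slc20a2 and Phex were the ones separated downward. The Slc20a2 difference was -0.21 (standard error 0.22), and in cells of 1 sex alone it was 0.12, and set to the same mix of pulp clusters, added after the data were seen and with no test, it was 0.10 within replicate 1 and -0.10 within replicate 2. Phex differed by -0.90 (standard error 0.70), with the replicate 2 libraries of both genotypes at 2.14 CPM as sampled and Din-KO replicate 1 at 0.868 CPM. Within replicate 1 and replicate 2 it differed by -0.84 and -0.001 as sampled, and by -0.74 within each when set to the same mix. In replicate 2 that mix takes in clusters of as few as 4 cells in WT and 8 in Din-KO. At such low counts the equal values do not show a repeated difference. For Smpd3 the difference was 0.72 in cells of 1 sex, and between 0.72 and 0.95 with any 1 library left out. Its test passed with the replicate number as a block, which is given in the closing part. Set to the same mix of pulp clusters, the Smpd3 differences within replicate 1 and replicate 2 were 0.53 and 0.98, beside 0.81 and 0.83 as sampled, in a comparison added after the data were seen and with no test.

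Smpd3 did not separate the genotypes in every cluster. In the Ifitm1 and Rspo4 led cluster Smpd3 was at 131.4 and 214.0 CPM in WT and 319.1 and 565.6 CPM in Din-KO, and in the Smoc2 and Lypd1 led cluster at 91.5 and 60.2 against 134.3 and 136.7 CPM. Both were separated upward, as were 10.2% and 12.6% of the genes with at least 10 UMIs in these clusters. In the Vcan and Rspo4 led cluster, at 393.4 and 210.0 against 509.6 and 353.3 CPM, the genotypes overlapped, although Din-KO was higher within each replicate number. In the Cldn10 and Ifitm1 led cluster Smpd3 was at most 10.6 CPM. No member was separated upward in these last 2, where 11.5% and 9.99% of genes were.

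Alpl was separated downward in the 2 pulp clusters where its mean was lowest, by the values given above for the Vcan and Rspo4 and the Smoc2 and Lypd1 led clusters, as were 14.5% and 14.6% of genes there. Over the whole class Alpl overlapped between genotypes. Phex was separated downward in the Cldn10 and Ifitm1 led cluster, from 23 and 3 UMIs in WT and 7 and 0 in Din-KO, beside 14.8% of genes, and none of the members was in the Ifitm1 and Rspo4 led cluster, where 14.8% were. The Cnmd and Gpha2 and the Enpp2 and Pdlim3 led clusters had under 10 cells in at least 1 library and were not compared in this way.

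In preodontoblast-like cells, where Smpd3 and Sgms2 are plentiful, no member separated the genotypes, beside 10.9% of genes upward and 13.2% downward. In odontoblast-like cells Alpl, at 325.9 and 308.0 against 463.1 and 435.9 CPM, and Enpp1, at 130.8 and 154.2 against 171.3 and 165.6 CPM, were higher in both Din-KO libraries, with log2 differences of 0.43 (standard error 0.30) and 0.16 (standard error 0.32). Of all genes there 14% were separated upward and 5.6% downward. Set to the same mix of the 2 odontoblast-like clusters, in a comparison added after the data were seen and with no test, the differences within replicate 1 and replicate 2 were 0.71 and 0.41 for Alpl but -0.17 and -0.08 for Enpp1, beside 0.39 and 0.10 for Enpp1 as sampled. Phex and Smpd3 differed more between replicate numbers than between genotypes in these cells.

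In dental follicle-like cells Slc20a1, at 7.78 and 11.4 against 11.6 and 12.2 CPM, was higher in both Din-KO libraries (0.25, standard error 0.30), and Enpp1, at 17.7 and 25.9 against 17.5 and 15.9 CPM, lower (-0.44, standard error 0.26), where 15.2% and 8.09% of genes were separated upward and downward. Set to the same mix of follicle clusters, again with no test, Slc20a1 differed by 0.50 and 0.08 and Enpp1 by 0.33 and -0.72 within replicate 1 and replicate 2, so Enpp1 was then lower in replicate 2 alone. In epithelium-like cells Smpd3, Sgms2, Slc20a2 and Enpp1 were higher in both Din-KO libraries, where 17.8% of genes were separated upward and 3.32% downward. Separations were counted on CPM without TMM factors, and Amelx dilutes the CPM of these cells unequally between libraries. The Slc20a2 difference was 0.03 (standard error 0.38). The 2 epithelium-like clusters took unequal shares, with 121, 32, 120 and 55 cells in one and 24, 89, 57 and 80 in the other, and Slc20a2 was separated upward in neither, at 39.4, 70.0, 60.2 and 63.6 CPM in the first and 41.4, 43.8, 40.8 and 41.4 CPM in the second. Smpd3 and Sgms2 were separated upward in the first alone, at 10.5 CPM or less, and Enpp1 in the second alone, at 8.65 CPM or less. The share of all genes so separated within these 2 clusters was not counted, so no result about the members is drawn from them. The Smpd3 difference of 2.01 (standard error 0.70, unadjusted p = 0.0337 and adjusted p = 1 by edgeR) came from 5 and 8 UMIs in WT and 58 and 24 in Din-KO, or 1.78 and 2.28 against 13.8 and 5.37 CPM. These levels are small beside the 1419 CPM or more of preodontoblast-like cells in the same libraries, and the part of RNA from such cells was not tested. The Smpd3 difference was 1.18 in cells of 1 sex and 1.25 without Din-KO replicate 1.

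Over all mesenchyme-like cells no member separated the genotypes, while 10.7% of genes did upward and 6.33% downward. Smpd3 was at 561.7 and 319.0 CPM in WT and 947.5 and 445.9 CPM in Din-KO (0.63, standard error 0.50), and Slc20a2 at 387.2, 142.7, 318.7 and 114.4 CPM, low in both replicate 2 libraries. A level over the whole mesenchyme moves with the share of each class, and the 2 cannot be told apart in such a sum. Whether the Din-KO effect itself differed between classes was tested against dental pulp-like cells, and by edgeR 0% of 13537 genes passed in any of the 4 other classes (126, 308, 136 and 368 genes at an unadjusted p under 0.05 in preodontoblast-like, odontoblast-like, dental follicle-like and epithelium-like cells). Among the 28 values of the members the smallest unadjusted p was 0.0746, for Enpp1 in dental follicle-like cells (edgeR adjusted p = 1). By the same test the other genes of the 5 lists gave 0 calls between genotypes in any class.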

How the data were processed

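Cells of the proximal lower incisor were captured with the 10x 3′ kit, and the files deposited by the authors hold UMI counts for every gene in every barcode, from Cell Ranger 6.0.2 against mm10/GRCm38 with no normalization; the submitters' processing notes also name bcl2fastq and Seurat. Each count is 1 transcript end, so intervals and floors cover counting error only. By the limits of the study's methods, a barcode was kept with 1000 genes or more, 10% or less of its UMIs mitochondrial and 3% or less from hemoglobin. Seurat 5.3.0 (R 4.3.3) integrated the 4 libraries on 1994 variable genes (2000 less the 6 members among them), regressed the cell cycle, and clustered on 30 components at a resolution of 1. A cluster took its best-scoring class where at least 3 markers of that class were detected. No other family of lists could hold more markers among its 10 leading genes. The mesenchyme, pulp, preodontoblast, odontoblast, follicle and bone lists formed a single family, in which no cluster could be named bone. Within it a cluster stayed unnamed if its leading genes held no marker of its own class but held a marker of another pulp, preodontoblast, odontoblast or follicle list. Scrublet (scanpy 1.11.5) called 0.946% of cells doublets; none were removed.

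UMIs were summed per library and class with at least 10 cells. edgeR 4.0.16 (quasi-likelihood test with TMM factors and filterByExpr, adjusted by Benjamini-Hochberg over all genes tested, threshold 0.05) compared classes with the library as a block, and Din-KO with WT, 2 libraries each, with no covariate. Levels are CPM of the summed counts. Both designs were tested on simulated data drawn from a single common profile, with no replicate structure. Those runs do not show how the tests behave where libraries differ by replicate number. DESeq2 1.42.0 and the settings of the closing part were alternatives. Genes named are the 8 members, the 3 genes most like each among those with a mean of at least 10 CPM, Dspp, Dmp1, Bglap, Ibsp and Amelx as checks, and up to 3 genes a direction from 5 lists; leading genes name clusters. A few items that the rule names are not reported here. The members and lists were chosen with earlier results of these data known. Shares of cells and levels were repeated after thinning to 2000 UMIs a cell. Python 3.11.15 with NumPy 2.4.6, SciPy 1.17.1 and matplotlib 3.10.9 was used.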

Additional observations from a re-analysis of the deposited data

How the results depend on the processing

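Of 350 class differences of single members under another setting, 331 kept their direction and side of the threshold, 10 lost the call, 1 gained it and 8 changed sign. The numbers of genes called between classes stayed within 1.5 times the main number in 49 of 50 alternatives, the exception being dental follicle-like against dental pulp-like cells, with 2839 to 3788 genes and 3 to 5 members called when 1 library was left out (lowest without Din-KO replicate 1). Changes of sign were Sgms2 (-0.37) and Smpd3 (-1.99) in odontoblast-like against preodontoblast-like cells and Alpl (-0.33) in odontoblast-like against dental pulp-like cells with the Bglap- and Dspp-led cluster alone, Phex (-1.14) in dental follicle-like cells without the Spp1-led cluster, and Sgms2 (0.31) there at a resolution of 0.5. With 1 library left out, log2 fold changes ran from -0.42 to 0.49 for Phex in preodontoblast-like cells, from -0.13 to 0.54 for Enpp1 and from -0.67 to 0.18 for Phex in epithelium-like cells, each against dental pulp-like cells and each with its sign changed without WT replicate 1.

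Between genotypes, the number of genes called depended on the setting. DESeq2 called 16 in mesenchyme-like, 14 in dental pulp-like, 8 in preodontoblast-like, 1 in odontoblast-like, 39 in dental follicle-like and 6 in epithelium-like cells. Without a filter on low counts edgeR called 8, 53, 58, 48 and 163 in the first 5. Dental pulp-like cells of 1 sex gave 0, and dental follicle-like cells gave 1 with the members kept among the variable genes and 2 with the highest doublet scores removed. With 1 library left out the numbers were 2 to 6 in mesenchyme-like, 23 to 129 in dental pulp-like, 2 to 72 in preodontoblast-like and 4 to 15 in dental follicle-like cells. Member differences were followed through the settings only where the genotypes were separated over a class, and for Smpd3 and Sgms2 in mesenchyme-like cells. Of these differences, those that changed sign were Slc20a2 in dental pulp-like cells (0.12) and Slc20a1 in dental follicle-like cells (-0.027) of 1 sex, and Slc20a2 in epithelium-like cells without the highest doublet scores (-0.029). With 1 library left out the differences ran from -0.044 to 1.20 for Sgms2 and -0.014 to 1.12 for Smpd3 in mesenchyme-like cells, from -0.020 to 0.38 for Enpp1 in odontoblast-like cells and from -0.32 to 0.48 for Slc20a2 in epithelium-like cells. The cause of these changes was not tested.

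The labels give both genotypes the replicate numbers 1 and 2 but tie a number to no shared animal, litter or day; the library names in the labels follow one pattern for both replicate 1 libraries and another for both replicate 2 libraries. With the number as a replicate block, 133 genes were called in mesenchyme-like, 366 in dental pulp-like, 129 in preodontoblast-like, 40 in odontoblast-like and 35 in dental follicle-like cells, and 1 member in each of the first 2, Smpd3 (log2 fold change 0.58, edgeR adjusted p = 0.0489, and 0.82, edgeR adjusted p = 3.09e-05). The deviations of same-numbered libraries from their group means correlated at r = 0.774 over 15241 genes, which with 2 pairs does not show that the samples were paired.

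Of 80 mean levels of a member recomputed from single cells or thinned cells, 69 moved by less than the spread between libraries. Those that moved were, as means over cells, Phex at 6.43 CPM in preodontoblast-like and 6.44 CPM in dental follicle-like cells and Enpp1 at 25.9 CPM in dental follicle-like and 12.9 CPM in epithelium-like cells, and, thinned, Phex at 4.75, 6.92 and 0 CPM in preodontoblast-like, dental follicle-like and epithelium-like cells, Enpp1 at 210.6, 27.6 and 11.2 CPM in odontoblast-like, dental follicle-like and epithelium-like cells, and Phospho1 at 3.17 CPM in preodontoblast-like cells. Depth limits Phospho1, at 18 UMIs in odontoblast-like cells, and the comparisons of 2 libraries a genotype limit the rest.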

Other observations

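Outside the 5 classes several of the genes were found in cells that form no mineral. Enpp1 was at 19.6 and 43.0 CPM in WT and 31.0 and 38.7 CPM in Din-KO macrophage-like cells, a range that overlapped that of preodontoblast-like cells, and had a UMI in 17.8% to 28.7% of them. Sgms2 was at 51.7, 75.7, 57.8 and 88.9 CPM in neutrophil-like cells, from 23, 44, 8 and 21 UMIs, above the level of dental pulp-like cells in every library. Alpl was at 215.9, 69.1, 255.7 and 504.0 CPM in perivascular-like cells, from 15 to 91 UMIs a library. Slc20a1 was at 20.6, 31.6, 20.4 and 35.6 CPM in endothelium-like cells, above the level of dental pulp-like cells in every library.

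A cycling cluster of 148 cells led by Dlk1, Top2a and Fgf3 met no class under the naming rule. The preodontoblast-like class also held many cells scored outside G1, as given above. The unnamed cluster held Smpd3 at 1398 and 1007 CPM in WT and 2251 and 687 CPM in Din-KO, and Sgms2 at 126.5, 326.8, 177.1 and 153.8 CPM. Both lay below the preodontoblast-like value of the same library and, in 4 of 4 libraries, above the dental pulp-like value.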
